A study of Mus musculus with 7 samples.

Results

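The 10 genes examined here are core parts of the canonical Wnt pathway: the ligand genes Wnt4, Wnt5a and Wnt7b, the receptor gene Fzd7, the co-receptor genes Lrp5 and Lrp6, the feedback inhibitor gene Axin2 and the nuclear factor genes Tcf7, Lef1 and Tcf7l2. An accessible region was assigned to one of them when the transcription start site (TSS) nearest to its midpoint, among the TSSs of all protein-coding genes, belonged to that gene. By this rule 230 of 119215 accessible regions were nearest to a member gene, and every member had at least 8. In the canonical pathway a Wnt ligand binds a Frizzled receptor together with Lrp5 or Lrp6, the complex that degrades beta-catenin is inhibited, and beta-catenin enters the nucleus and joins TCF/LEF proteins on DNA. Axin2 is part of that degrading complex and is itself one of the most widely used target genes of the pathway. In the mammary gland Wnt4 acts downstream of progesterone, Wnt signalling maintains progenitor cells, and overactive Wnt signalling causes mammary tumours in mice.

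Chromatin accessibility was measured by ATAC-seq, in which a transposase cuts and tags open DNA, in tumour cells of MMTV-PyMT mice that also carried a Dll1-mCherry reporter. All the mice thus shared the polyoma middle T transgene, driven by the mouse mammary tumour virus promoter, and the mCherry transgene that marks cells expressing the Notch ligand gene Dll1. After CD45-, CD31- and Ter119-positive cells were sorted away, mCherry-positive cells (Dll1+, 3 samples) and mCherry-negative cells (Dll1-, 4 samples) were collected from 4 tumours, of which 3 gave both populations. The labels used here give no ages.

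Each population was deposited as 1 list of accessible regions over all its samples, so values per tumour were not analysed here, no spread between tumours can be given, and no test between the populations was made. The Dll1+ list held 132872 rows and the Dll1- list 148923, and rows that overlapped or touched were joined into regions. The Dll1- list was the deeper one, with a genome-wide background of 7.20 reads per summit window against 3.74 in the Dll1+ list, a ratio of 1.93. Strength is the fold enrichment at the strongest summit, meaning reads over local background as deposited, and its rank is the percent of rows of the same list with a lower fold. The rank difference is the Dll1+ percentile minus the Dll1- percentile, in points, and a difference of 20 points or more was counted as a shift. Fewer cells of a type with an open region and less open chromatin per cell cannot be told apart in such data.

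All 6 luminal markers (Epcam, Cdh1, Krt8, Krt18, Krt19, Elf5) had an accessible TSS in both lists. Of 5 basal markers, 2 had one in each list (Acta2 and Oxtr), and the defining basal genes Krt5, Krt14 and Trp63 had none in either. The genes of the sorted-out antigens CD45 (Ptprc) and CD31 (Pecam1) also had none. Of 5 fibroblast markers, 1 had an accessible TSS in Dll1+ cells (Pdgfra) and 3 in Dll1- cells (with Pdgfrb and Col1a2). Col1a1 and Thy1 had none in either. Immune markers gave 1 of 5 in Dll1+ cells and 2 of 5 in Dll1- cells, where Csf1r was added to Cd68. The Dll1- list was the deeper one, and 24.6% of all regions were called only there, so these few calls do not show a difference in cell types. The part of such cells, or of depth, in the differences described here was not tested.

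The regions that differed most between the populations are shown first, each from 100 bases before to 100 bases after its summit in GRCm38.p6, with the TCF/LEF words CTTTGAA or CTTTGAT, the AP-1 word TGACTCA or its other reading TGAGTCA, and the RBPJ word TGGGAA (the word bound by the Notch effector) in capitals on either strand. These 3 had the highest fold among regions found only in Dll1+ cells, and none of them held any of the words.
Wnt5a region 7 (chr14:28340352-28340552, plus strand): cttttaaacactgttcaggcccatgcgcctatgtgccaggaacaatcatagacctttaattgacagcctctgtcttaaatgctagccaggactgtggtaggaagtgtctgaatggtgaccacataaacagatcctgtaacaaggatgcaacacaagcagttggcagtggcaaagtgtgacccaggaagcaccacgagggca
Lrp6 region 19 (chr6:134575491-134575691, plus strand): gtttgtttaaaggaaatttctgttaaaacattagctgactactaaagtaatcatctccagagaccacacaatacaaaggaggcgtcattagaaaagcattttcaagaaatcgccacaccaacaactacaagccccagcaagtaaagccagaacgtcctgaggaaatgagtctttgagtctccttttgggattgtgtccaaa
Tcf7l2 region 39 (chr19:55828600-55828800, plus strand): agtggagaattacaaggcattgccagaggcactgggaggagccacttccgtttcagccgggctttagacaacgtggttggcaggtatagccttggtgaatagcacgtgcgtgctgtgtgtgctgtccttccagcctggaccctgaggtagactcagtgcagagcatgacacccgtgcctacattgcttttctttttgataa

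The corresponding 3 windows with the highest fold among regions found only in Dll1- cells held an AP-1 word in Wnt5a region 6 and Tcf7l2 region 12, and an RBPJ word in Axin2 region 12 and Tcf7l2 region 12. Regions are numbered along the chromosome within each gene.
Wnt5a region 6 (chr14:28317633-28317833, plus strand): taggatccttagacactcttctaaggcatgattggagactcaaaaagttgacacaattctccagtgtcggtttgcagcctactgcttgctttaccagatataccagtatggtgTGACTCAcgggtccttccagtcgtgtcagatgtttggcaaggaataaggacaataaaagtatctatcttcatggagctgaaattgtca
Axin2 region 12 (chr11:109005879-109006079, plus strand): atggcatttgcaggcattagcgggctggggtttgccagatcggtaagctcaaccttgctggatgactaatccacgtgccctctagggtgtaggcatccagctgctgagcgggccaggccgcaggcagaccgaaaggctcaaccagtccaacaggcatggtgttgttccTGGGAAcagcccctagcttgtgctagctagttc
Tcf7l2 region 12 (chr19:55593849-55594049, plus strand): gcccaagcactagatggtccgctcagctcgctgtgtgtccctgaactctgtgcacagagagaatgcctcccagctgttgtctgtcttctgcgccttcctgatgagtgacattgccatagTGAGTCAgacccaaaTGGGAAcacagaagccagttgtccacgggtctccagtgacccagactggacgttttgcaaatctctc

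Among regions found in both lists, the largest rank differences towards Dll1+ cells were at Lrp6 region 5 and Fzd7 region 1, and the latter held a TCF/LEF word. The largest towards Dll1- cells were at Lrp5 region 4, which held an AP-1 word, and Wnt4 region 3, which held none of the 3 words.
Lrp6 region 5 (chr6:134512569-134512769, plus strand): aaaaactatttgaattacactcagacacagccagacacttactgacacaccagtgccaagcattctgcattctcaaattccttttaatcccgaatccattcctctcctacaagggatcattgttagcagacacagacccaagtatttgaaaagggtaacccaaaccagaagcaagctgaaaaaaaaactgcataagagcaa
Fzd7 region 1 (chr1:59383189-59383389, plus strand): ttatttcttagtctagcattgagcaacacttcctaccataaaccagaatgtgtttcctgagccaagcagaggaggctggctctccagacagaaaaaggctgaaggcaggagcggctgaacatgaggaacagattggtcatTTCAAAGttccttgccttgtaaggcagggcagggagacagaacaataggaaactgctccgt
Lrp5 region 4 (chr19:3654972-3655172, plus strand): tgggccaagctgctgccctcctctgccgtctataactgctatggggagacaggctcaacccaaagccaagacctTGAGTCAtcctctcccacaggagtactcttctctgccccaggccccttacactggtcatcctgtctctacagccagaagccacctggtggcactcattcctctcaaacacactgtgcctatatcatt
Wnt4 region 3 (chr4:137200447-137200647, plus strand): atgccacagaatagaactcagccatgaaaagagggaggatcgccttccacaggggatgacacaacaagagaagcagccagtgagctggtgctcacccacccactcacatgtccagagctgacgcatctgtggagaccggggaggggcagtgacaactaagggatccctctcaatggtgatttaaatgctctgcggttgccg

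As a group, the Wnt genes were divided between the populations much like the genome. Of the 230 regions, 140 were shared (60.9%, 95% Wilson interval 54.4 to 66.9), 24 were found only in Dll1+ cells (10.4%, 7.11 to 15.1) and 66 only in Dll1- cells (28.7%, 23.2 to 34.9). Over all 119215 regions, 9.01% were Dll1+ only and 24.6% were Dll1- only, both within those intervals, which cover counting error only. Scaling the Dll1- reads to the depth of the Dll1+ list left all 3 counts as they were. Its only floor was the lowest -log10 p of the Dll1+ list (2.00), and it removed no member region. That setting thus could not show what depth does to the counts. When both lists were in addition kept above a common significance floor, a setting chosen after the data were seen, 128 regions were shared, 28 were Dll1+ only and 37 were Dll1- only, while 12.3% of all regions were Dll1+ only and 18.9% were Dll1- only.

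**Figure D1:**
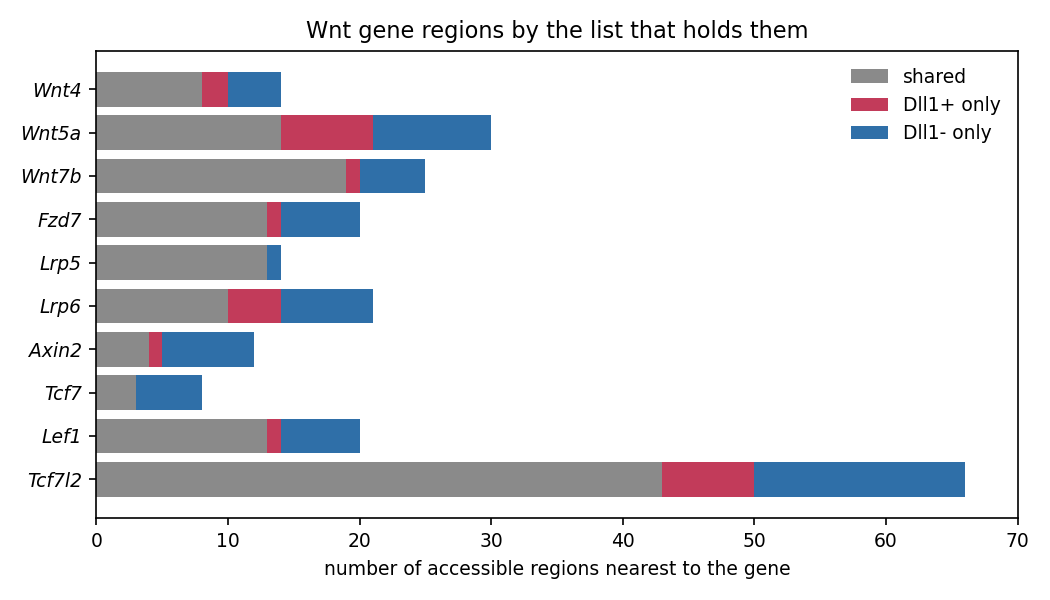
Number of accessible regions nearest to each Wnt gene (horizontal axis) by gene, with regions in both lists in grey, in the Dll1+ list only in red and in the Dll1- list only in blue. Tcf7l2 had the most regions (66) and Tcf7 the fewest (8), and Dll1- only regions outnumbered all others at Axin2 and Tcf7.

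Strength also shifted little over the group. The median rank difference of the 140 shared regions was -1.53 points, beside -1.67 over all 79153 shared regions. Its sign turned when the lists were cut to equal numbers of rows (2.14 points) or to the common floor (2.89 points). A shift towards Dll1+ was seen at 6 (4.29%, against 6.39% of all shared regions) and a shift towards Dll1- at 16 (11.4%, against 11.1%), so neither share stood far from the background. The shared Wnt regions were weaker than most: their median percentile was 57.0 in Dll1+ and 59.7 in Dll1- cells, beside 67.3 and 70.7 for all shared regions.

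**Figure D2:**
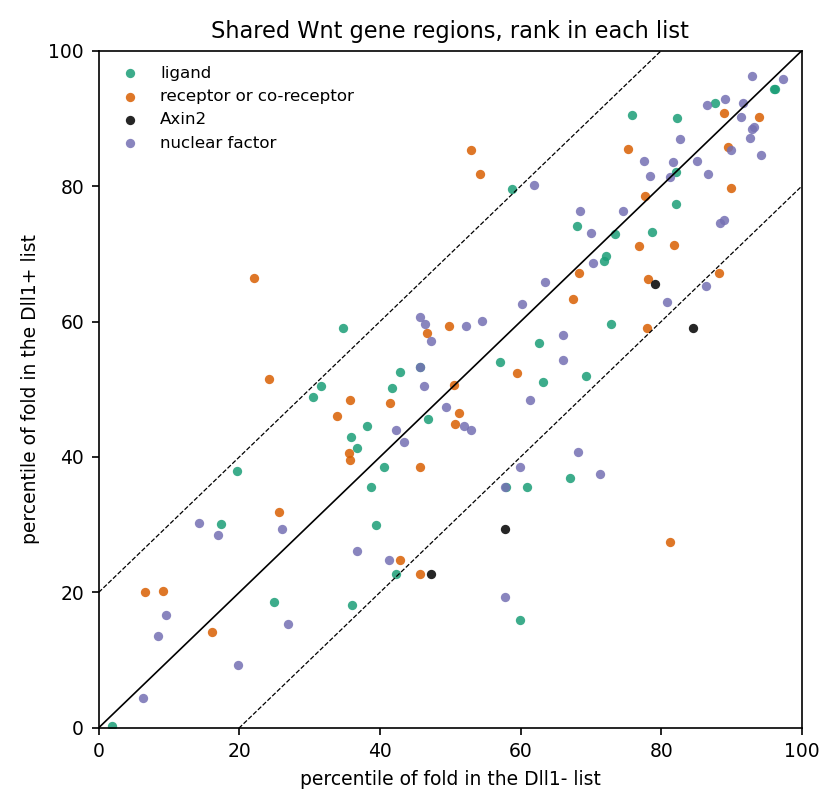
Percentile of the strongest fold of each of the 140 shared regions in the Dll1- list (horizontal axis) and in the Dll1+ list (vertical axis), coloured by the role of the gene; the solid line marks equal rank and the dashed lines a difference of 20 points. Of the points, 6 lie on or above the upper dashed line and 16 on or below the lower one, and all 4 Axin2 points lie under the solid line.

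The members had more regions for their territory than the genome had on average. There were 101.8 regions per Mb of territory nearest to the members, from 51.7 at Axin2 to 211.2 at Wnt7b, beside 43.7 per Mb over the genome. Regions over 50 kb from the TSS made up 44.3%, against 31.6% of all regions. The other Wnt genes with a region, described below, lay between, with 68.1 regions per Mb and 36.3% over 50 kb. The share of the members over 50 kb was uneven: Tcf7l2 (42 of 66), Wnt5a (20 of 30) and Lef1 (12 of 20) carried most of it, while Wnt4 (3 of 14), Fzd7 (5 of 20), Wnt7b (7 of 25), Lrp5 (1 of 14) and Tcf7 (0 of 8) lay below the share of all regions. Promoters made up 7.83% of the member regions, against 11.7%, and introns held 53.5% of them, often those of a neighbouring gene: of the 30 regions nearest to Wnt5a, 19 lay inside Erc2, and of the 66 nearest to Tcf7l2, 14 lay inside Vti1a. For such regions the nearest TSS is a rule of assignment, and whether they act on the Wnt gene was not measured.

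**Figure D3:**
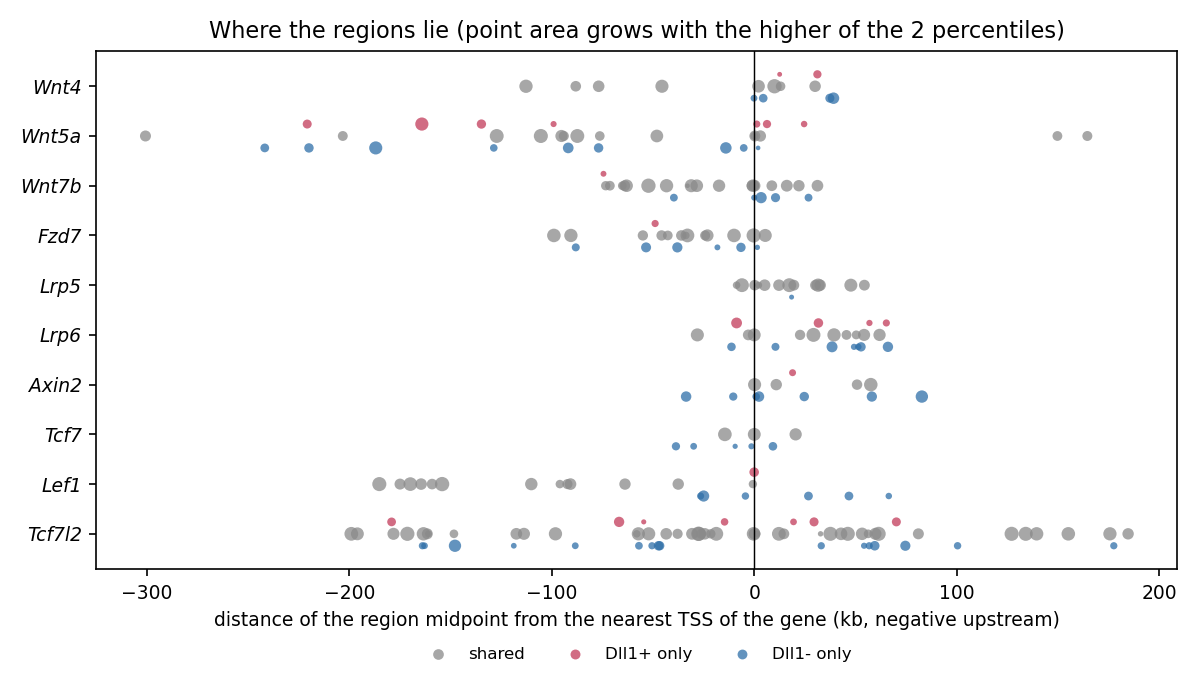
Distance of each region midpoint from the nearest TSS of its gene in kb (horizontal axis, negative upstream), with 1 row per gene, Dll1+ only regions above (red), shared regions in the middle (grey) and Dll1- only regions below (blue); point area grows with the higher percentile. Wnt5a reaches farthest, to 300.8 kb upstream, and the shared regions of Lef1 lie mostly upstream while its Dll1- only regions lie nearer the TSS and in the gene.

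Among the ligand genes, Wnt5a carried the most regions found only in Dll1+ cells, 7 of its 30 (23.3%, 11.8 to 40.9, against 9.01% of all regions), beside 9 Dll1- only (30%, 16.7 to 47.9, against 24.6%) and 14 shared. Of the 4906 genes with at least 8 regions, 7.79% had as high a Dll1+ only share. Wnt5a encodes a ligand that often signals without beta-catenin. Its strongest Dll1+ only region, region 7, lay 164.2 kb upstream in an Erc2 intron with a fold of 10.3 from 48 reads, higher than 80.1% of the rows of its list. Its strongest Dll1- only region, region 6, lay only 22.8 kb farther upstream with a fold of 9.27 from 75 reads, higher than 79.3% of rows. The distal block thus held strong regions of both kinds, and they were the strongest of each kind among all members.

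At the distal positions with the highest folds, the shared Wnt5a regions had higher folds in Dll1+ cells. By rank they differed less, by 4.66 points at region 11 and 7.90 at region 10. No Wnt5a region shifted by 20 points towards Dll1+. Region 11 had the highest fold of the gene in both lists (14.9 in Dll1+ and 11.95 in Dll1- cells), with 104 and 97 summit reads. Region 10, 127.3 kb upstream, had folds of 13.8 and 10.1, and a depth-scaled read ratio (Dll1+ over Dll1-, each relative to its genome-wide background) of 2.31 (95% exact interval 1.81 to 2.96, counting error only). Over all shared regions this ratio had a median of 1.18, and 90% of them lay between 0.633 and 2.17. Region 16, 87.4 kb upstream, had the largest rank difference towards Dll1+ cells, 14.6 points, with folds of 13.9 and 8.49. In the other direction, region 13 had folds of 4.51 and 6.93 and a rank difference of -30.1 points. At the gene itself both TSS regions were shared. The upstream one was of moderate strength, with folds of 5.86 and 4.42, and the internal one was weak, with a fold of 3.36 in both lists.

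Wnt4, which mediates progesterone-driven branching in the mammary gland, had no called region at its TSS in Dll1+ cells. In Dll1- cells the TSS region was called with a fold of 2.81 from 38 reads, higher than only 15.2% of rows. The Dll1- list was the deeper one, and the part of depth in this single difference was not tested. The strongest Wnt4 region, region 8 in an intron 9.955 kb into the gene, was alike in both, with folds of 16.2 and 17.2 and a ratio of 1.19 (1.01 to 1.40). Shifts went both ways around it. Region 3, 76.9 kb upstream, had folds of 3.17 and 5.98 (rank difference -43.9 points), while region 11, 30.01 kb downstream of the TSS, had 6.54 and 3.90 (24.3 points) and region 4, 45.6 kb upstream, 10.2 and 5.85 (20.7 points). The 8 shared regions split evenly, 4 ranked higher in each list. The regions found in 1 list were of modest strength, the strongest being region 12 in Dll1+ cells (fold 3.80, 17 reads) and region 14 in Dll1- cells (fold 5.85, 47 reads).

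Wnt7b, a ligand of luminal mammary cells and tumour macrophages, had 19 of 25 regions shared, 1 Dll1+ only and 5 Dll1- only (20%, 8.86 to 39.1, beside 24.6% of all regions). At its TSSs, 2 regions were shared, with folds of 6.32 and 6.33 at one and 5.07 and 4.13 at the other, and another was called only in Dll1- cells with a fold of 2.52. Its strongest region, region 19 at 52.3 kb upstream, had folds of 16.2 and 17.0 and rested on 360 and 681 reads, for a ratio of 1.02 (0.894 to 1.16). The 2 shifted Wnt7b regions both lay in its introns and both ranked higher in Dll1- cells: region 1 had folds of 4.43 and 6.10 (-25.3 points) and region 3 had 4.43 and 5.73 (-22.3 points). The largest rank difference towards Dll1+ cells, at region 21, was 18.9 points (folds of 5.67 and 3.73). Its only Dll1+ only region, region 25, had a fold of 2.72, and the strongest Dll1- only one, region 7 in an intron, had a fold of 5.52.

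Among the receptor genes, Fzd7, a Frizzled receptor linked to mammary stem cells and basal-type tumours, had the strongest TSS region of the 10 genes in both lists. The TSS region had folds of 13.8 and 15.3 from 312 and 547 reads, and the ratio was 1.10 (0.953 to 1.26). The largest shifts towards Dll1+ cells lay at the far end of its upstream block. Region 1, 99.02 kb upstream in an intron of Gm29016, had a fold of 11.9 in Dll1+ and 5.24 in Dll1- cells, with 56 reads in the shallower list against 42 in the deeper one. Its rank difference was 32.4 points and its ratio 2.57 (1.69 to 3.93), higher than at 98.0% of all shared regions. Region 2, at 90.6 kb upstream, moved the same way, with folds of 10.8 and 5.37 and a ratio of 2.64 (1.75 to 4.01). Region 12, at 33.0 kb upstream, went the other way with folds of 7.70 and 12.2 and a rank difference of -21.1 points, or -10.7 when rows were ranked by their p-value in place of the fold. The single Dll1+ only region, region 6, had a fold of 3.27 from 17 reads, and the strongest of 6 Dll1- only regions, region 9, had a fold of 4.56 from 74 reads.

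With all rows kept, Lrp5 was the member with the fewest differences in presence: 13 of its 14 regions were shared, against 66.4% of all regions. A single weak region was Dll1- only (region 7, fold 2.07), against 24.6%. None was Dll1+ only, against 9.01%, where 0 of 14 allows a share of up to 21.5% (Wilson). With rows at or above the median fold of their list this changed: Fzd7 had 7 shared regions and no other, and Lrp5 had 5 shared, 3 Dll1+ only and 2 Dll1- only. The Lrp5 TSS region had folds of 5.47 and 3.96 and a ratio of 1.65 (1.12 to 2.41). Its strongest regions were region 13 in Dll1+ cells (folds of 12.05 and 12.8) and region 8 in Dll1- cells (10.2 and 12.98). In strength, however, it held the largest shift of the set. Region 4, in an intron 31.5 kb into the gene, had a fold of 3.87 from 38 reads in Dll1+ and 9.78 from 147 reads in Dll1- cells. It ranked above 27.4% of rows in one list and 81.3% in the other, a difference of -53.9 points, with a ratio of 0.498 (0.339 to 0.715). Region 6 of the same gene, 11.997 kb nearer the TSS, went the other way with folds of 5.70 and 3.29 (27.3 points) and a ratio of 2.19 (1.63 to 2.94).

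Lrp6, the other co-receptor gene, had 10 shared, 4 Dll1+ only (19.05%, 7.67 to 40.0) and 7 Dll1- only regions (33.3%, 17.2 to 54.6), with the shares of all regions, 9.01% and 24.6%, inside both intervals. Its TSS region was alike, with folds of 8.38 and 8.68 and a ratio of 1.22 (0.953 to 1.55). Region 5, in an intron 54.2 kb into the gene, had the largest shift towards Dll1+ of all members. It had 82 reads and a fold of 7.59 in Dll1+ cells and 35 reads and a fold of 3.19 in Dll1- cells, although the second list was the deeper. The rank difference was 44.2 points and the ratio 4.51 (3.00 to 6.91), higher than at 99.9% of all shared regions. Its strongest Dll1+ only region, region 19, lay 8.8 kb upstream of the TSS with a fold of 5.70 from 26 reads. Region 15 shifted the other way, with folds of 3.59 and 4.63 and a rank difference of -23.01 points, on 16 and 37 reads. The strongest region in both lists, region 14 in an intron, had folds of 14.1 and 12.5, and the strongest Dll1- only region, region 12, a fold of 5.20 from 54 reads.

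Axin2 was the only one of the 10 genes with no shared region that ranked higher in Dll1+ cells. Of its 12 regions, 7 were Dll1- only, 1 was Dll1+ only and 4 were shared, and all 4 shared ones ranked higher in Dll1- cells. The Dll1- only share was 58.3% (32.0 to 80.7), against 24.6% of all regions, and 2.65% of the 4906 genes with at least 8 regions had a share as high or higher. Depth scaling with a common floor gave 4 shared, 6 Dll1- only and 0 Dll1+ only regions, while a 50% reciprocal overlap, or a limit of 50 kb from the TSS, left 2 shared ones. With rows at or above the median fold of their list, 2 were shared and 2 were Dll1- only. When a region found in 1 list had to reach that median there, 1 Dll1- only region was left.

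At the Axin2 TSS (region 3, chr11:108920003-108920945, covering the first exon) the fold was 7.39 in Dll1+ and 9.22 in Dll1- cells. The reads differed more than the folds, 40 against 152, and the ratio was 0.507 (0.348 to 0.722), lower than at all but 1.84% of shared regions. The local background, 4.55 reads in the Dll1+ and 15.6 in the Dll1- list, differed in the same direction, and the rank difference, which rests on the fold, was -13.6 points. This summit window held a TCF/LEF word. The 250 bases directly upstream of the TSS, which lie inside this region and are shown to give the promoter sequence, held no TCF/LEF, AP-1 or RBPJ word. Of the same windows before all 21941 protein-coding gene records, 7.42%, 4.00% and 22.1% held one of these words.
Axin2 promoter (chr11:108920099-108920348, plus strand): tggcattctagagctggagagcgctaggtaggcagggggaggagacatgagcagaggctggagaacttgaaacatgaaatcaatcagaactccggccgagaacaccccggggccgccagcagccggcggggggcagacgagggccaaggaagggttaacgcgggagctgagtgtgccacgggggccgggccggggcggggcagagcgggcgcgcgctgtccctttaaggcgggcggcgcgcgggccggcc

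The other 3 shared Axin2 regions each passed 20 points towards Dll1-. Region 10, 57.5 kb downstream of the TSS and the strongest of the gene in Dll1- cells, had folds of 6.54 and 10.8 from 30 and 114 reads, with a ratio of 0.507 (0.327 to 0.763) and an AP-1 word. Region 6 in an intron had folds of 4.01 and 5.73 (-28.4 points), and region 9 had 3.59 and 4.76 (-24.6 points), and at both the interval of the ratio included the median of all shared regions. Across the 4 regions the ratio ran from 0.507 to 0.811. Among the Dll1- only regions, region 12 at 82.7 kb downstream was the strongest, with a fold of 7.32 from 59 reads, and the others had folds of 3.14 to 4.82. The single Dll1+ only region, region 7, had a fold of 3.17 from 14 reads. In the deeper Dll1- list 3 of 5 fibroblast marker TSSs were called, against 1 of 5 in the Dll1+ list. The part of fibroblasts, or of depth, in the Axin2 values was not tested.

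Tcf7 and Lef1, which encode related TCF/LEF proteins, had unlike Dll1- only shares, but with overlapping intervals. Tcf7 had 5 Dll1- only regions of 8 (62.5%, 30.6 to 86.3), against 30% (14.5 to 51.9) at Lef1. Of the others, 3 were shared and none was Dll1+ only, where 0 of 8 allows a share of up to 32.4% (Wilson). Of the genes compared, 1.81% had a Dll1- only share as high as that of Tcf7. The 5 Dll1- only regions of Tcf7 were weak, however, with folds of 2.20 to 3.58 and 17 to 36 reads (the strongest was region 2), and depth scaling with a common floor gave 1 Dll1- only region. Its promoter was alike in both populations, with folds of 9.43 and 8.21 and a ratio of 1.08 (0.785 to 1.46), and that window held both a TCF/LEF and an RBPJ word. The other 2 shared regions shifted towards Dll1-. Region 6, 14.6 kb upstream, had folds of 7.39 and 11.5 (-21.2 points) and region 1 in an intron had 4.84 and 7.09 (-27.5 points). Csf1r and the fibroblast genes Pdgfrb and Col1a2 were also called at the TSS only in the Dll1- list, which was the deeper one. The T cell marker Cd3e had no TSS region in either list. The part of such cells, or of depth, in the Tcf7 values was not tested.

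Lef1 had its TSS region called only in Dll1+ cells. That region (region 16, chr3:131110156-131110609) had a fold of 4.62 from 23 reads and ranked above 37.8% of its list, so it was of less than median strength. A second promoter region, region 17 at 0.716 kb upstream of another Lef1 TSS, was shared and ranked higher in Dll1- cells, with folds of 3.15 and 3.46 and a rank difference of -11.6 points. The 250 bases upstream of the TSS, which lie inside region 16, held 1 RBPJ word and no TCF/LEF or AP-1 word.
Lef1 promoter (chr3:131110221-131110470, plus strand): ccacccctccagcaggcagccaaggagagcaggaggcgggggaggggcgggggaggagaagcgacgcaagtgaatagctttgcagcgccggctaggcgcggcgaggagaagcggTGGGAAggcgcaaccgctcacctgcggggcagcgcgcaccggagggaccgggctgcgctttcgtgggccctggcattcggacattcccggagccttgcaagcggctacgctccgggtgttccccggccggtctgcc

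Of the 20 Lef1 regions, 6 were Dll1- only (30%, 14.5 to 51.9), near the 24.6% of all regions, and 33.4% of the genes compared had as high a share. The Lef1 regions differed by position, in a split chosen after the values were seen. Of 12 regions more than 50 kb from the TSS, the 1 downstream was Dll1- only, with a fold of 2.68 from 21 reads. All 11 upstream were shared, beside 66.4% of all regions at any distance, and 8 of them ranked higher in Dll1+ cells. The ratios of these 11 ran from 1.37 to 2.21 with a median of 1.60, each above the median of all shared regions. The strongest, region 6 at 154.2 kb upstream, had folds of 17.7 and 14.6 and a ratio of 1.89 (1.53 to 2.34). Region 1, at 185.2 kb upstream and a promoter of 2010110G14Rik, had 15.2 and 12.6. Within 50 kb of the TSS, both promoter regions included, 2 regions were shared, region 12 with a ratio of 0.837 and the promoter region 17 with 0.963, 5 were Dll1- only and 1 was Dll1+ only. The largest shift was at region 12, 37.6 kb upstream, with folds of 4.43 and 5.73 (-22.1 points) and a TCF/LEF word. The largest rank difference towards Dll1+ cells was 15.03 points at region 10, 90.8 kb upstream, with folds of 6.75 and 4.63. The Dll1- only regions were weak to moderate, with folds from 2.68 to the 5.49 of region 14.

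**Figure D4:**
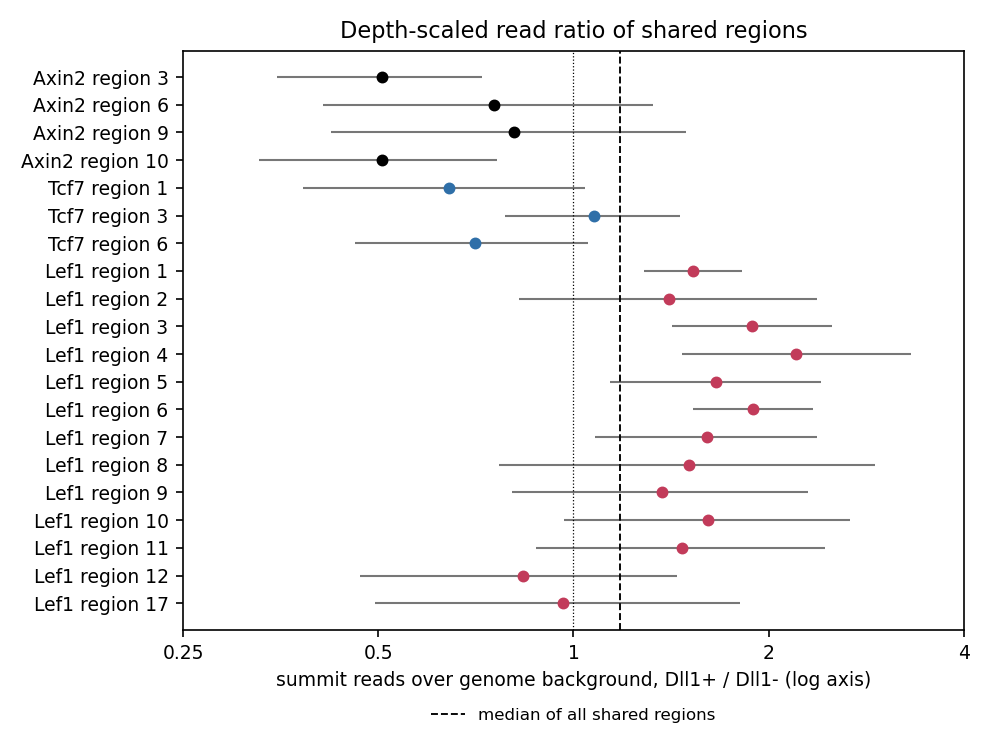
Depth-scaled read ratio of the shared regions of Axin2 (black), Tcf7 (blue) and Lef1 (red), Dll1+ over Dll1- on a log axis, with 95% exact intervals for counting error as bars; the dashed line is the median of all shared regions (1.18) and the dotted line is 1. The 4 Axin2 points lie at 0.507 to 0.811, while the 11 upper Lef1 points lie at 1.37 to 2.21.

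Tcf7l2, which encodes the TCF protein with the broadest epithelial role, had by far the most regions, 66, of which 43 were shared, 7 Dll1+ only and 16 Dll1- only, shares of 10.6% and 24.2% beside 9.01% and 24.6% of all regions. Its strongest region and its main promoter were alike in both lists. Its strongest, region 21 at 27.6 kb upstream, had folds of 17.3 and 18.6 and a ratio of 1.02 (0.855 to 1.22), and its main promoter had folds of 10.8 and 11.6 and a ratio of 1.05 (0.874 to 1.26). An internal promoter (region 53) was weaker in Dll1+ cells, with folds of 4.64 and 5.98 and a rank difference of -21.3 points, but it rested on 21 and 48 reads and its ratio of 0.843 (0.479 to 1.43) covered the median. Further shifts towards Dll1- were at region 66, 184.6 kb downstream, with folds of 3.38 and 5.73 (-38.4 points), and at region 34 in an intron, with 4.58 and 7.60 (-33.8 points). No Tcf7l2 region shifted by 20 points towards Dll1+, the largest difference being 18.2 points at region 19 (folds of 10.3 and 6.22). Reads and ranks did not always move alike. Region 26, in an intron 14.6 kb into the gene, had a ratio of 2.47 (1.85 to 3.29) with a rank difference of 4.11 points, and region 5, a strong region in a Vti1a intron with folds of 11.6 and 15.6, had a ratio of 0.548 (0.416 to 0.715) with a rank difference of -9.73 points.

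**Figure D5:**
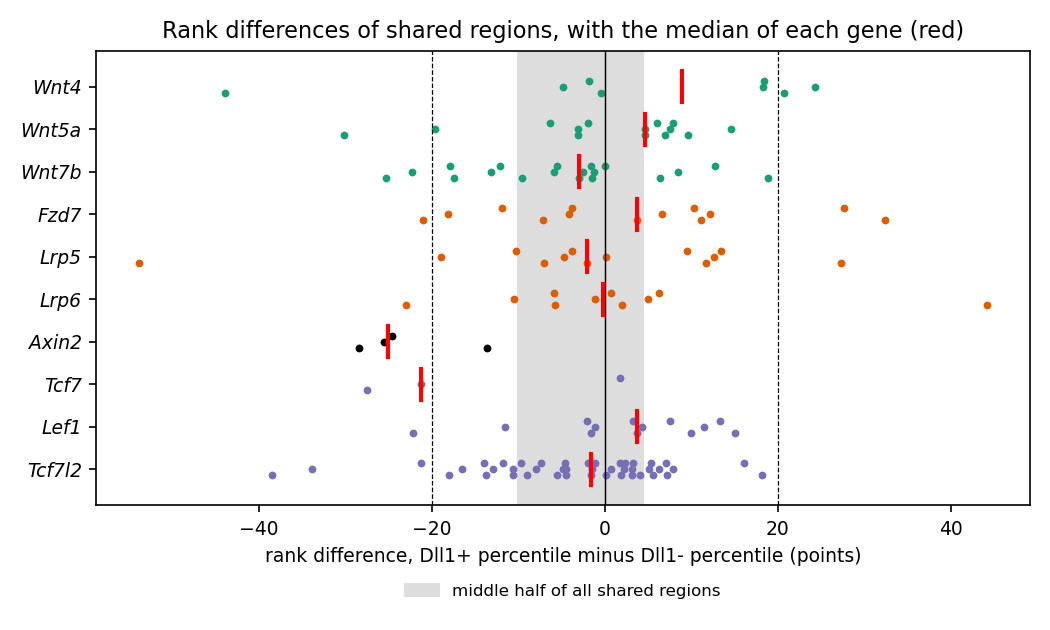
Rank difference (Dll1+ percentile minus Dll1- percentile, points) of each shared region by gene, with the median of the gene in red; the grey band spans the lower to the upper quartile of all shared regions (-10.03 to 4.47 points) and the dashed lines mark 20 points either way. The medians of Axin2 (-25.05) and Tcf7 (-21.2) lie left of the band, while those of Wnt4 (8.90) and, narrowly, Wnt5a (4.64) lie to its right and those of the other genes lie between -2.95 and 3.78. The band is the spread of single regions, not of gene medians, which rest on 3 (Tcf7) to 43 (Tcf7l2) regions.

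By role, the median rank difference was -1.58 points for the ligands, -0.54 for the receptors and co-receptors, -1.18 for the nuclear factors and -25.05 for Axin2, of which the first 3 are no larger than the change in the group median under those settings. Of 14 regions that held a member's TSS, 11 were shared, 1 was Dll1+ only and 2 were Dll1- only. Over all regions of any kind the shares were 66.4%, 9.01% and 24.6%, and the shares among all TSS regions were not counted here. Of the 11 shared, 4 ranked higher in Dll1+ and 7 in Dll1- cells, beside 32432 and 46721 of all shared regions.

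Sequence words give a readout that the assignment rule did not use. A TCF/LEF word on either strand (CTTTGAA or CTTTGAT) stood in 25 of 230 summit windows (10.9%, 7.47 to 15.6), against 6.02% of all 119215 windows of the same length. By presence it did not separate the populations, with 14 of 140 shared (10%), 4 of 24 Dll1+ only (16.7%, 6.68 to 35.9) and 7 of 66 Dll1- only windows (10.6%, 5.23 to 20.3). Over all regions the same classes held it in 5.72%, 6.56% and 6.61%. Of the 14 shared member regions with the word, 10 ranked higher in Dll1- and 4 in Dll1+ cells. The Dll1- side held 71.4% of these 14 and 59.3% of the 4530 shared regions with the word over the genome. The median GC content was 51.7% in member windows and 50.2% in all. Fzd7 had the word in 4 of 20 windows, Tcf7 in 2 of 8 and Axin2 in 2 of 12.

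The AP-1 word (TGACTCA, whose other strand reads TGAGTCA) did separate them, as it did over the genome. It stood in 18 of 66 Dll1- only windows (27.3%, 18.003 to 39.0), in 24 of 140 shared windows (17.1%, 11.8 to 24.2) and in 0 of 24 Dll1+ only windows, which allows a share of up to 13.8% (Wilson). Over all regions the values were 30.4%, 15.4% and 4.40%, the same order of classes. Of the 24 shared member regions with the word, 19 ranked higher in Dll1- and 5 in Dll1+ cells, beside 77 and 63 of all 140. The Dll1- side held 79.2% of these 24 and 79.5% of the 12169 shared regions with the word over the genome. The RBPJ word (TGGGAA) was as frequent as elsewhere, in 19.1% of member windows and 18.5% of all, with 5 of 24 in Dll1+ only, 12 of 66 in Dll1- only and 27 of 140 in shared windows. None of the 3 words is contained in another, and a match is a description of the sequence, not of binding.

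The other genes of the pathway were described by the same counts. Of 79 further Wnt genes (ligands, their secretion factors, agonists, receptors, inhibitors, cytoplasmic components, nuclear factors and targets), 78 had a region, 818 in all. Of these, 527 were shared, 62 Dll1+ only (7.58%, 5.96 to 9.60) and 229 Dll1- only (28.0%, 25.03 to 31.2), beside 9.01% and 24.6% of all regions, and the median rank difference was -2.10 points. Among shared regions 35 shifted towards Dll1+ (6.64%) and 65 towards Dll1- (12.3%). Groups differed little in the median, from -0.62 points for the 16 ligand genes to -4.75 for the 5 target genes.

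By number, the largest excess of Dll1- only regions was at Wnt11, a ligand of the non-canonical branch, with 12 Dll1- only (54.5%, 34.7 to 73.1), 10 shared and 0 Dll1+ only regions. The co-repressor genes Tle3 (10 Dll1- only, 1 Dll1+ only, 25 shared) and Tle4 (9, 0 and 11) followed. The Dll1- only share of Tle3 was 27.8% (15.8 to 44.0), near that of all regions, and that of Tle4 was 45% (25.8 to 65.8). In the other direction the excesses were small, at Bcl9, a beta-catenin co-activator (3 Dll1+ only, 1 Dll1- only, 8 shared), and Ctnnbip1, an inhibitor of beta-catenin and TCF binding (2, 1 and 8). The secreted inhibitor gene Dkk4 had 2 regions, both Dll1+ only, the stronger with a fold of 6.97.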

How the data were processed

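ATAC-seq samples of Dll1+ (n = 3) and Dll1- (n = 4) tumour cells were processed by the authors, in 1 batch per population, with the ENCODE ATAC-seq pipeline. The files analysed were 1 optimal peak list per population, deposited with the fold enrichment ratio at each summit and its −log10 p-value, and builds GRCm38 and mm10 are given in the submitters' notes. The aligner's version was not given in the sources used here. Reads per sample were not analysed here, and the depth of each list was judged from the reads at its summits (median 43 in Dll1+, 61 in Dll1-).

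Rows that overlapped or touched were merged, and midpoints were assigned to the nearest TSS of any basic transcript of a protein-coding gene (GENCODE M21). Reads and local background at each summit were recovered by solving the fold, taken as (reads + 1)/(background + 1), together with the Poisson p-value, and this succeeded for 100% of Dll1+ rows and for all but 1 Dll1- row. The recovery was checked on simulated data. Read ratios have 95% exact binomial intervals and shares have Wilson intervals, which cover counting error only. A promoter was the stretch from 1000 bp before a TSS to 100 bp after it. Python 3.11.15 with numpy 2.4.6, pandas 2.3.3, scipy 1.17.1, pysam 0.24.0 and matplotlib 3.10.9 was used. The text names, for each member, the regions at a TSS, the strongest of each kind and those with the largest rank difference each way, and other Wnt genes by the 3 largest excesses each way. Further regions named (Wnt4 region 4, Wnt5a region 10, Wnt7b region 3, Fzd7 region 2, Axin2 region 9, Lef1 region 1, Tcf7l2 regions 5, 26 and 34) were chosen after their values were seen. The members and lists were chosen with earlier results of these data known.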

Additional observations from a re-analysis of the deposited data

How the results depend on the processing

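No paired analysis was possible because the processed files used here hold 1 pooled list per population, and for the same reason no sample was left out. Reads per tumour were not analysed here. The counts depend on the strength required. With rows at or above the median fold of their list, 70 member regions were shared, 16 Dll1+ only and 24 Dll1- only. When a region found in 1 list had to reach that median there, 2 Dll1+ only and 8 Dll1- only regions were left. Within 50 kb of the TSS there were 76 shared, 13 Dll1+ only and 39 Dll1- only regions. Cutting the longer list to equal numbers of rows turned the median rank difference to 2.14 points. Depth scaling with a common floor, added after the data were seen because the planned scaling removed no member region, gave 37 Dll1- only regions and a median of 2.89 points. The sign of this small median thus changed with where the lists end, and its 95% interval, -3.77 to 1.71 points, holds 0. That interval treats the 140 shared regions as independent and holds no spread between tumours. Leaving out each gene in turn gave 97 to 137 shared, 17 to 24 Dll1+ only and 50 to 65 Dll1- only regions, with medians of -1.79 to -1.17 points. The gene-record TSS, the strongest summit in place of the midpoint, a 50% reciprocal overlap, ranks among regions and ranks by p-value kept each count within 1.5 times its value and the median within that interval, where they apply. By p-value, 21 of the 22 shifted regions still passed 20 points, the exception being Fzd7 region 12. At Axin2, 2 of the 4 shared regions met the 50% reciprocal overlap. Many calls rested on few reads: 40 of the 90 regions found in 1 list rested on at most 30 summit reads.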
